A study of Schmidtea mediterranea with 4 samples.

Results

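The 300 most abundant transcripts of the planarian tail are described here across tails of animals given RNA interference (RNAi) against nsf and tails of animals given EGFP RNAi. The members were chosen by their mean level in the 2 EGFP RNAi libraries, as the 300 IDs with the highest mean of the 36019 IDs in the deposited table, or 0.833% of them. The animals were asexual Schmidtea mediterranea of strain CIW4, a freshwater flatworm known for regrowing a whole body from small fragments. Both the nsf RNAi group (n = 2 libraries) and the EGFP RNAi group (n = 2 libraries) are adult tails marked 10 dpf, an abbreviation the labels leave unexplained, and both were kept at 20 °C, starved for 7 days or more and fed double-stranded RNA in 2 feedings spaced 3 days apart. The labels do not say how many animals went into a library or whether the replicates were separate cultures, so the spread between replicates may be technical.

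N-ethylmaleimide-sensitive factor, the protein that the name nsf commonly refers to, is an ATPase that pulls apart SNARE complexes after membranes have fused. It thereby returns SNARE proteins to further rounds of vesicle transport and release. Planarians have no counterpart of EGFP, a fluorescent protein from jellyfish, so its double-stranded RNA served as the control. In animal tissues a small set of transcripts usually makes up a large part of the messenger RNA, often those for ribosomal proteins, translation factors, cytoskeletal proteins and mitochondrial enzymes. Which of these the 300 members encode is not known here, because the deposited IDs come without gene names and no annotation was used. For the same reason neither the level of nsf nor markers of the tail's cell types could be looked up. Members are therefore given by rank in the EGFP RNAi mean, and 7 of them by ID.

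Levels are in TPM, a measure of transcript abundance corrected for length that adds up to 1000000 in every library. By its name, the deposited table holds values from which the authors had removed a batch effect, a step that can narrow the spread between replicates. Whole-number counts and lengths were recovered from the TPM, and the counts summed to between 7242709 and 10169071 per library. Each member had at least 704 recovered counts in every library, a level at which counting error alone is 3.77%, and at the median of 5102 counts that error is 1.40%. This error covers counting only. The standard errors and confidence intervals given further on come instead from the spread between libraries. They also borrow from the spread of other transcripts at a similar level. The fit leaves 1 residual degree of freedom per transcript, and 5.83 after this borrowing.

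The 300 members held a large part of all TPM, and a slightly smaller part after nsf RNAi. Their share was 41.3% and 41.4% of total TPM in nsf RNAi replicates 1 and 2, against 42.1% and 42.3% in EGFP RNAi replicates 1 and 2. The mean share was 41.3% ± 0.056 in nsf RNAi and 42.2% ± 0.175 in EGFP RNAi (SD, n = 2 each), a difference of -0.889 percentage points. Both nsf RNAi libraries lay below both EGFP RNAi libraries, and the gap was larger than the spread between replicates. No test was made, because the EGFP RNAi values chose the members, and a choice made on one group favours a lower share in the other. When the nsf RNAi mean chose the 300 instead, the difference was -0.825 percentage points, and with the mean of all 4 libraries it was -0.862. Every table column has the same total, so the TPM that the members lacked in nsf RNAi stood elsewhere. The next 700 IDs in the order held 18.3% ± 0.094 in nsf RNAi and 18.3% ± 0.0018 in EGFP RNAi, and the 35019 IDs below rank 1000 held 40.4% ± 0.150 in nsf RNAi and 39.5% ± 0.177 in EGFP RNAi (SD, n = 2 each). After quantile normalization, which gives every library the same set of values by construction, the difference in share was -0.0245 percentage points.

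**Figure D1:**
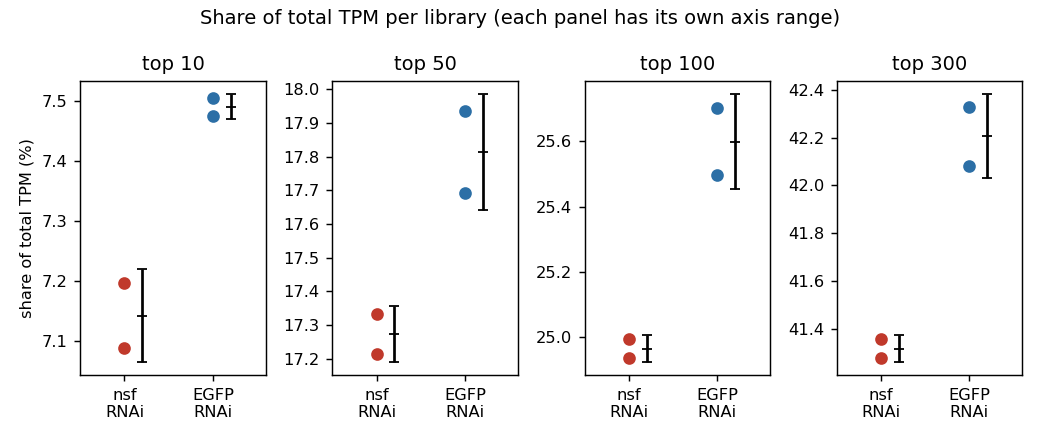
Share of total TPM, in percent, held by the 10, 50, 100 and 300 most abundant transcripts, with 1 point per library and the mean ± SD of 2 libraries beside each pair. Both nsf RNAi libraries lie below both EGFP RNAi libraries in each panel, with 41.3% and 41.4% against 42.1% and 42.3% for all 300.

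The table of levels was steep at its top. In EGFP RNAi the first member averaged 15188 TPM and the member ranked 300 averaged 505.5 TPM, a 30.0-fold range. The median of the 300 means was 1008 TPM in nsf RNAi and 1033 TPM in EGFP RNAi. Over the 19555 IDs that averaged 1 TPM or more, the median of the group means was 12.0 TPM in nsf RNAi and 11.8 TPM in EGFP RNAi. The first 10 members alone held 7.14% ± 0.077 of total TPM in nsf RNAi and 7.49% ± 0.021 in EGFP RNAi (SD, n = 2 each). The first 50 held 17.3% ± 0.083 in nsf RNAi and 17.8% ± 0.172 in EGFP RNAi. At the limit of the choice, the member ranked 300 stood at 508.4 TPM in nsf RNAi and 505.5 TPM in EGFP RNAi, and the first ID outside at 547.7 TPM in nsf RNAi and 503.2 TPM in EGFP RNAi.

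**Figure D2:**
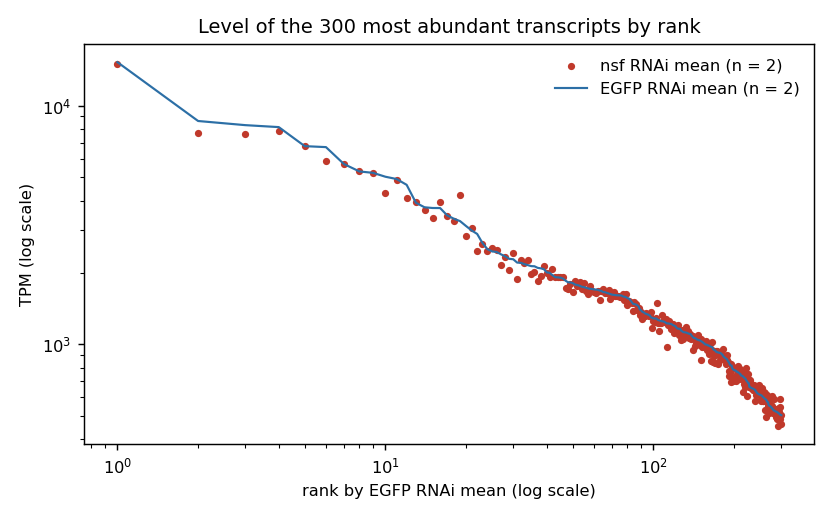
Mean TPM of each of the 300 transcripts, on a log axis, against its rank in the EGFP RNAi mean, also on a log axis. Red points are nsf RNAi means and the blue line is the EGFP RNAi mean, and the points stay close to the line over the whole range between 15188 and 505.5 TPM.

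The single most abundant transcript differed less between the groups than between the nsf RNAi replicates. SMED30007704, at rank 1, had 15251 and 14737 TPM in the nsf RNAi libraries, against 15283 and 15094 TPM in the EGFP RNAi libraries. The groups overlapped, and it was the first-ranked ID in each of the 4 libraries. Its recovered length was 1528 bases and its recovered counts ran from 121587 to 171934. The log2 difference, on the log2(TPM + 1) scale used for all differences here, was -0.02 with a 95% confidence interval of -0.10 to 0.06 (limma).

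The transcripts ranked 2 and 3 were lower in both nsf RNAi libraries than in both EGFP RNAi libraries, without passing the test. SMED30028565, at rank 2, had 7462 and 7929 TPM in nsf RNAi, against 8224 and 9006 TPM in EGFP RNAi, and a log2 difference of -0.16 ± 0.03 (standard error; limma adjusted p = 0.73). This is a short transcript, with a recovered length of 324 bases. SMED30021545, at rank 3, had 7970 and 7288 TPM in nsf RNAi, against 8473 and 8083 TPM in EGFP RNAi. Its log2 difference was -0.12 ± 0.04 (limma adjusted p = 0.74), over a recovered length of 793 bases. The difference of SMED30028565 was -0.10 without EGFP RNAi replicate 2 and -0.03 after quantile normalization. That of SMED30021545 was -0.05 without nsf RNAi replicate 2, -0.18 without nsf RNAi replicate 1 and 0 after quantile normalization. Quantile normalization replaces each value by one set for its rank. SMED30028565 held ranks 4 and 2 in nsf RNAi and 3 and 2 in EGFP RNAi, and SMED30021545 ranks 2 and 4 in both. The 0 of SMED30021545 was therefore fixed by rank, and neither quantile value speaks to the gap in TPM. Voom, a fit of the recovered counts described with the tests, called both lower, and over 14 alternatives the adjusted p ran from 0.0027 to 1.0 for SMED30028565 and from 0.0030 to 1.0 for SMED30021545. These and the transcript ranked 4 took ranks 2 to 4 in every library, in an order that differed between replicates of the same group.

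Further down the first 10, some transcripts matched closely between groups and others were lower in nsf RNAi. Those ranked 5, 7, 8 and 9 had ratios of nsf RNAi over EGFP RNAi means between 1.002 and 1.004. The transcript ranked 6 had 5969 and 5804 TPM in nsf RNAi, against 6881 and 6515 TPM in EGFP RNAi, a ratio of 0.879. The transcript ranked 10 had 4354 and 4287 TPM in nsf RNAi, against 4849 and 5220 TPM in EGFP RNAi, a ratio of 0.858. Of the 10, 5 had groups that did not overlap, and each of those was lower in nsf RNAi, where 28.2% of all IDs tested were higher and 16.0% lower without overlap.

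The order of the members was nearly the same in the groups. Of the 300, 292 were also among the 300 IDs with the highest nsf RNAi mean, and 287 were among the first 300 of each library taken alone. Of the first 100, 97 were among the first 100 by the nsf RNAi mean, and of the first 10, 9 were. The median member moved by 5 places between the EGFP RNAi and the nsf RNAi order, and the largest move was 45 places. Within the 300, Spearman's rho across transcripts was 0.992 between the nsf RNAi libraries and 0.988 between the EGFP RNAi libraries. Between groups it ran from 0.988 to 0.991. These values are across transcripts, which are not replicates, and the value of the EGFP RNAi pair lay within the range of the pairs drawn from different groups.

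The 8 members that left the first 300 came from near its end. Their ranks by EGFP RNAi mean were between 263 and 300, and the lowest of them by nsf RNAi mean stood at rank 328. The longest member, with a recovered length of 11239 bases, was among them, at 569.9 and 421.0 TPM in nsf RNAi, against 777.0 and 398.6 TPM in EGFP RNAi. Its groups overlapped, and its place among the 300 rested on EGFP RNAi replicate 1, since by EGFP RNAi replicate 2 alone its rank was 375. Of the 8 IDs that took their places, the one that came from furthest down had rank 352 by the EGFP RNAi mean and 271 by the nsf RNAi mean. It averaged 557.5 TPM in nsf RNAi and 426.2 TPM in EGFP RNAi (limma adjusted p = 0.53).

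No member passed the test of nsf RNAi against EGFP RNAi. The test was limma's moderated linear model with a replicate block, adjusted by the Benjamini-Hochberg method over the same 19555 IDs, and all 300 members were among these. At an adjusted p under 0.05 it called 0 of the 300, where 0.00511% of the IDs tested, 1 ID that is not a member, were called. The lowest adjusted p of a member was 0.53. A fit of the recovered counts (voom in limma, adjusted over 16764 IDs) called 15 members, 1 higher and 14 lower in nsf RNAi, where 0.161% of its IDs were called. Those 15 were 55.6% of the 27 IDs that voom called and 5% of the members. Of the next 700 IDs in the order, voom called 5 (0.714%), 2 higher and 3 lower. With 1 library left out, limma was fitted without the block, and a lone library was assumed to vary like the other pair. The calls of those fits, over the members and over all IDs tested, are given as ranges in the closing section.

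At an unadjusted p under 0.05, more members were lower than higher. The limma fit had 38 members lower in nsf RNAi, or 12.7%, where 2.55% of all IDs tested were lower at this threshold. On the other side were 8 members, or 2.67%, where 3.92% of all IDs tested were higher. The EGFP RNAi values that chose the members also enter this fit, which favours the lower side. With members chosen by the nsf RNAi mean there were 36 lower and 9 higher. Scaling moved the split, to 68 lower and 5 higher with the libraries rescaled to a median log2 ratio of 0. After quantile normalization it was 30 lower and 22 higher, but that step removes most of a shift shared by the top ranks. Over all IDs tested, 3.66% were then lower and 2.79% higher after rescaling, and 3.39% and 2.94% after quantile normalization. The median standard error of the log2 difference was 0.04 over the members, 0.15 over all IDs tested and 0.05 over the 700 IDs that follow in the order, which are therefore the closer comparison. Of these 700, 51 (7.29%) were lower and 27 (3.86%) higher. The 38 had log2 differences between -0.32 and -0.10 with a median of -0.15, and 14 of them ranked within the first 50. Their limma adjusted p-values were between 0.72 and 0.77. The 8 had log2 differences between 0.11 and 0.36, and 1 of them ranked within the first 50.

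**Figure D3:**
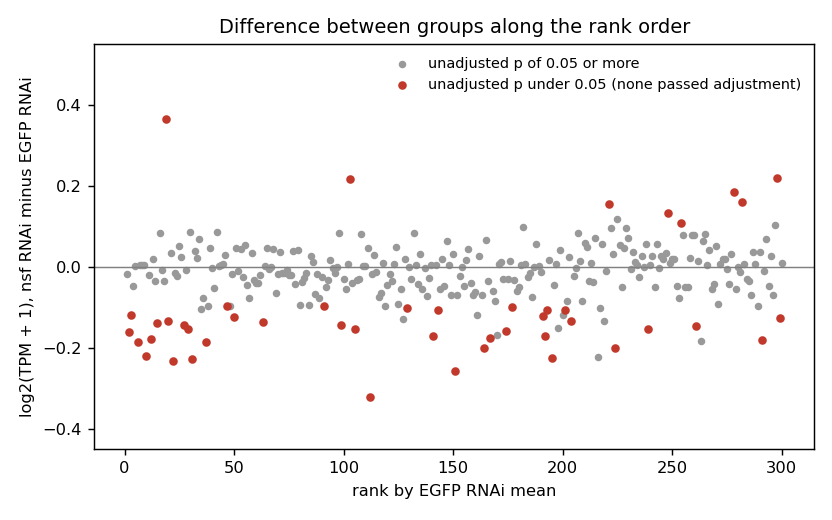
Difference between groups, nsf RNAi minus EGFP RNAi on the log2(TPM + 1) scale, for each of the 300 transcripts by rank in the EGFP RNAi mean. Red points mark an unadjusted p under 0.05 (limma), 38 below 0 and 8 above it, and no point passed after adjustment.

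The differences were small throughout. The log2 differences of the 300 ran from -0.32 to 0.36. Over 1.5-fold apart were 0 members, against 5.56% of all IDs tested and 0 of the next 700 IDs. More than 1.2-fold apart were 2 members, 1 in each direction, against 22.5% of all IDs tested and 7 (1%) of the next 700 IDs. More than 1.1-fold apart were 34 members, or 11.3%, of which 6 were higher and 28 lower in nsf RNAi, against 44.6% of all IDs tested and 9.86% of the next 700 IDs. The group means of 209 members lay within 5% of each other, and those of 61 within 1%. The median size of the difference was 0.04 on the log2 scale, beside a median of 0.04 between the nsf RNAi replicates and 0.04 between the EGFP RNAi replicates. The first is between means of 2 libraries and the others are between single libraries. Without a group effect the first would be expected to be smaller, so the like values do not equate it with replicate spread. In 98 members the difference between groups was larger than both replicate differences, or 32.7%, near the 31.4% of all IDs tested and the 34.4% of the next 700. For each of the 300 the 95% confidence interval lay within 1.5-fold in either direction, and for 268 within 1.2-fold. These intervals borrow from the spread of other transcripts, so they do not measure each member's own spread between replicates.

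The lean towards lower levels in nsf RNAi changed in size with the scaling of the libraries. As deposited, the median log2 difference was -0.01 over the members and 0.03 over all IDs tested. The groups did not overlap for 51 members that were higher and 86 that were lower in nsf RNAi, or 17.0% and 28.7%, where 28.2% of all IDs tested were higher and 16.0% lower. With each library rescaled to a median log2 ratio of 0, these counts became 18 higher and 141 lower, and the members' median log2 difference -0.05. After quantile normalization they were 66 higher and 54 lower, with a median of 0. That step gives every library the same set of values and so removes most of a shift shared by the top ranks. Its near-even split therefore cannot speak to the lean. Over all IDs tested, 22.3% were higher and 20.9% lower without overlap after rescaling, and 21.5% and 21.3% after quantile normalization. With any 1 of the 4 libraries left out, 210 to 224 members (70.0% to 74.7%) did not overlap, beside 71.1% to 73.7% of all IDs tested.

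The transcript with the largest difference among the members was higher in nsf RNAi. SMED30010350, at rank 19, had 4274 and 4145 TPM in the nsf RNAi libraries, against 3532 and 3029 TPM in the EGFP RNAi libraries. The groups did not overlap, and the mean of 4210 ± 90.8 TPM in nsf RNAi was 1.28 times the 3281 ± 356 TPM of EGFP RNAi (SD, n = 2 each). Its log2 difference was 0.36 ± 0.05 (standard error; 95% confidence interval 0.24 to 0.49), and it did not pass the test (limma adjusted p = 0.53). In the order of levels it stood at rank 12 in both nsf RNAi libraries and at ranks 17 and 20 in the EGFP RNAi libraries. Its recovered counts were 9834 and 10691 in nsf RNAi and 8389 and 9959 in EGFP RNAi, over 441 bases. Over 14 alternatives the adjusted p ran from 6.2e-05 to 0.88, and it was under 0.05 in 2 of them, voom and the fit without EGFP RNAi replicate 1.

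The second ID given for a higher level lies at the other end of the order. SMED30021196, at rank 298, had 590.7 and 589.3 TPM in nsf RNAi, against 499.1 and 514.3 TPM in EGFP RNAi, with no overlap. Its log2 difference was 0.22 ± 0.04 (limma adjusted p = 0.73) and its recovered length 464 bases. By nsf RNAi mean it stood at rank 263.

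On the lower side the largest difference belonged to SMED30029626, at rank 112. It had 987.9 and 963.7 TPM in nsf RNAi, against 1127 and 1322 TPM in EGFP RNAi, where the replicates lay further apart than in nsf RNAi. Its mean of 976 ± 17.1 TPM in nsf RNAi was 0.797 times the 1225 ± 138 TPM of EGFP RNAi (SD, n = 2 each). The log2 difference was -0.32 ± 0.07 (limma adjusted p = 0.73), and leaving out EGFP RNAi replicate 1 gave -0.44, leaving out EGFP RNAi replicate 2 gave -0.21. It passed the test in voom and without EGFP RNAi replicate 1, and the adjusted p over 14 alternatives ran from 0.00077 to 0.88. SMED30035476, at rank 151 and 333 bases long, had 892.7 and 827.3 TPM in nsf RNAi, against 961.9 and 1099 TPM in EGFP RNAi, and a log2 difference of -0.26 ± 0.07 (limma adjusted p = 0.73). Without EGFP RNAi replicate 1 its log2 difference was -0.35 and it passed, with an adjusted p of 0.032, whereas without EGFP RNAi replicate 2 the difference was -0.16. Its adjusted p over 14 alternatives ran from that value to 0.88.

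**Figure D4:**
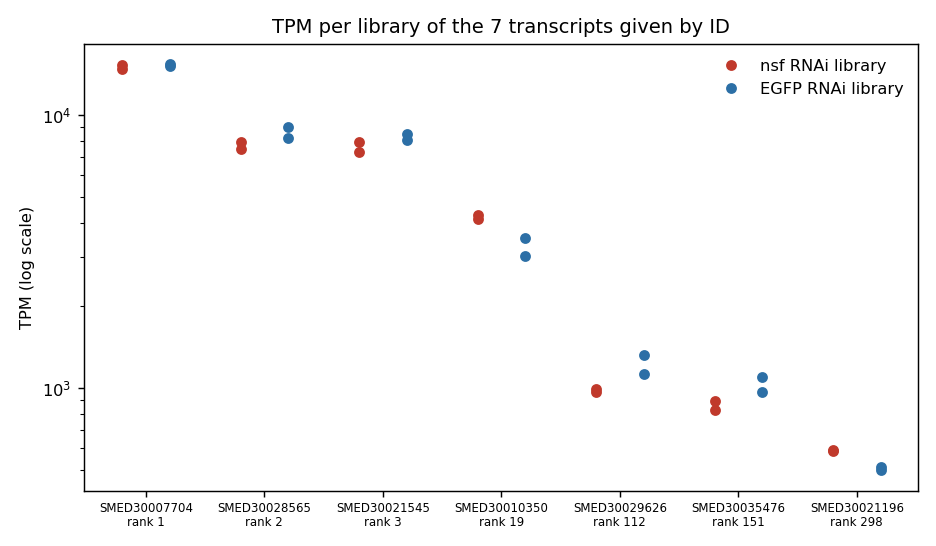
TPM per library, on a log axis, of the 7 transcripts given by ID, ordered by rank in the EGFP RNAi mean. Red points are nsf RNAi libraries and blue points EGFP RNAi libraries. The groups overlap at rank 1, nsf RNAi is higher for SMED30010350 and SMED30021196, and it is lower for the other 4.

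The largest deficits in TPM in nsf RNAi lay near the top of the order. Summed over the 300, mean TPM in nsf RNAi minus that in EGFP RNAi came to -8893 TPM, made up of 173 members with a lower mean, which differed by 13736 TPM in all, and 127 with a higher mean, which differed by 4843 TPM. The 10 members with the largest deficits in TPM accounted for a change of -5287 TPM, within the 13736 TPM of all deficits. They were at ranks 2, 3, 4, 6, 10, 12, 15, 20, 22 and 31, and the deficit was largest for rank 2 (-920 TPM). At an equal ratio, a change in TPM grows with level. In EGFP RNAi the first 50 members held 17.8% of total TPM, out of 42.2% for the 300. Among members with a higher mean, SMED30010350 alone contributed 929 TPM, and the next largest contribution, from rank 16, was 229 TPM. By class of rank, the mean TPM of nsf RNAi minus that of EGFP RNAi summed to -3490 over ranks 1 to 10, -1907 over ranks 11 to 50, -965 over ranks 51 to 100, -2585 over the next 100 members and 53.6 over the last 100. The median log2 difference was below 0 in the first 4 of these classes, between -0.03 and -0.02, and 0.01 in the last. With the libraries rescaled it was below 0 in all 5 classes, between -0.07 and -0.03. After quantile normalization, which holds the top ranks to the same values in every library, it lay between -0.0045 and 0.0070. In the last class 27 of 100 members were higher and 20 lower without overlap, close to the 28.2% and 16.0% of all IDs tested, and in the 100 members before it 10 were higher and 34 lower.

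The members were shorter than other transcripts. Their median recovered length was 761 bases with quartiles at 562 and 1301, against a median of 1214 and quartiles at 692 and 1941 over the 19244 other tested IDs with a recovered length. TPM divides by length, so length enters the choice of the members. By recovered counts, which are not corrected for length, they held 30.6% ± 0.098 of the total in nsf RNAi and 31.4% ± 0.0033 in EGFP RNAi (SD, n = 2 each), less than their share of TPM.

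Shorter members tended to be lower in nsf RNAi than longer ones. The 56 members of up to 500 bases had a median log2 difference of -0.04, with 16 above 0 and 40 below. The 89 members over 500 and up to 750 bases had a median of -0.03, with 28 above 0 and 61 below. For the 47 members over 750 and up to 1000 bases the median was -0.02, and for the 53 over 1000 and up to 1500 bases it was -0.01. The 55 members over 1500 bases had a median of 0.02, with 39 above 0 and 16 below. When the libraries were rescaled in the same way, the medians of the shortest and longest classes were -0.08 and -0.02, and after quantile normalization -0.02 and 0.03. The relation was not particular to the members. As deposited, the medians of the shortest and longest classes were -0.04 and 0.02 over the next 700 IDs. Over all other tested IDs with a recovered length they were 0.02 and 0.04. Over the 300 the Spearman correlation of length with the log2 difference was 0.27 as deposited and 0.22 after quantile normalization, and over the next 700 IDs it was 0.19, in each case across transcripts that share the same libraries. Length was also related to the difference between replicates of 1 group: replicate 2 minus replicate 1 correlated with length at -0.39 within nsf RNAi and at -0.04 within EGFP RNAi. The part of this spread between replicates in the relation with length was not tested.

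**Figure D5:**
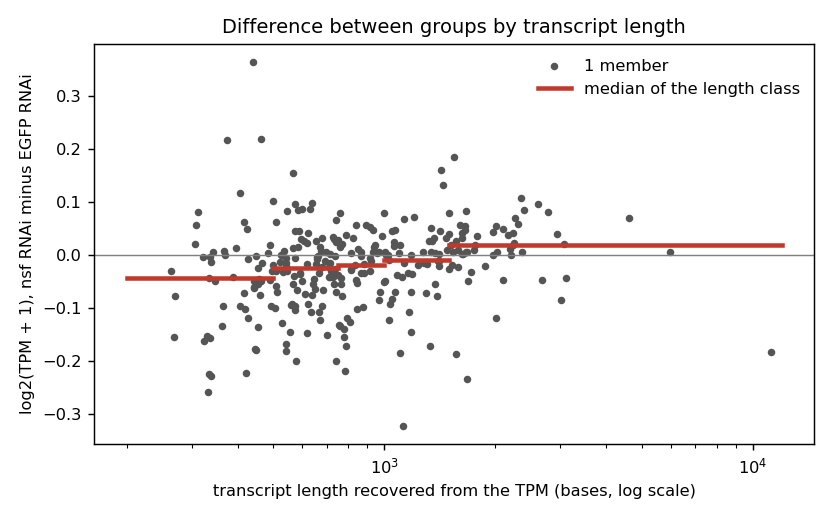
Difference between groups, nsf RNAi minus EGFP RNAi on the log2(TPM + 1) scale, for each of the 300 transcripts against its recovered length in bases on a log axis. Red lines are the medians of 5 length classes, which lie between -0.04 for the shortest and 0.02 for the longest in the values as deposited, and between -0.08 and -0.02 after rescaling to a median log2 ratio of 0.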

How the data were processed

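The authors deposited 1 table of TPM for 4 libraries of polyadenylated RNA from planarian tails. Each column sums to 1000000 over 36019 IDs. Per the name of the deposited table, a batch effect was removed beforehand. How, over which batches, with which aligner and on which genome build is not given in the sources used here. Per the submitters' processing notes, SAMtools was used. Libraries were made from 2 µg of RNA, per the labels' protocols.

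The members were ranked by the mean of the EGFP RNAi columns. The members and tests were chosen with earlier results of these data known. Differences were tested with limma 3.58.1 in R 4.3.3 on log2(TPM + 1), a scale that understates changes of low IDs, over IDs that averaged 1 TPM or more. The model had an abundance trend and a block for the replicate number, and p-values were adjusted by the Benjamini-Hochberg method. The block accounts for the degree of freedom that batch removal takes from 4 libraries and assumes that the batch was the replicate number, which no source states. In the sample titles both replicate 2 libraries carry an ending p that the replicate 1 libraries lack, without explanation. Whether the numbers mark a shared culture or day is not known. The smallest p of an exact permutation test (two-sided) is 0.33 in this design.

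Counts and lengths were recovered as the smallest whole numbers (within 0.0005) that give the TPM, for 26187 IDs, with Python 3.11.15. They are the counts behind the batch-adjusted TPM, and a common factor of a transcript's counts and length would be lost. The recovery and the fit were also run on simulated counts drawn without a replicate effect or batch removal, a setting unlike the deposited values. IDs given by name are the first 3 by rank and, in each direction, the 2 largest differences among members whose groups did not overlap. The alternatives were other pseudocounts, filters, scalings and blocks, voom with a mean of at least 10 counts, each library left out, and other choices of the members.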

Additional observations from a re-analysis of the deposited data

How the results depend on the processing

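Members called by limma numbered 0 as reported, and also at pseudocounts of 0.1 and 10, without a filter, at a mean of at least 5 TPM, with no replicate block, without the trend, after rescaling and after quantile normalization. They numbered 15 with voom on recovered counts and between 0 and 6 with 1 library left out. The count over all tested IDs, 1 as reported, was 0 at a pseudocount of 0.1, 0 without a filter, 0 at a mean of at least 5 TPM, 0 without the trend, 3 with no replicate block, 2 after quantile normalization, 27 with voom and between 0 and 46 with 1 library left out. A crossed replicate block, added after the data were seen, called 31 IDs and 0 members. The difference between replicates 2 and 1 in nsf RNAi correlated with that in EGFP RNAi at -0.42 across all tested IDs and at 0.31 across the members. Removal of a batch that followed the replicate number would itself push this correlation below 0, so it cannot decide the pairing. The cause of these correlations was not tested.

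The difference in share, -0.889 percentage points, was -0.636 for 100 members, -0.0245 after quantile normalization and between -1.03 and -0.819 with 1 library left out. The members' median log2 difference minus that of all tested IDs, -0.048, was -0.014 without a filter and -0.0023 after quantile normalization. Quantile normalization holds its values for the share and for the median near 0 by construction. The 137 members without overlap (45.7%, beside 44.3% of all IDs tested) were 46 of 100 members and 453 of 1000. With 1 library left out they were between 210 and 224, beside 71.1% to 73.7% of all IDs tested. Over 1.5-fold apart were 0 members, and between 0 and 1 with 1 library left out. Of 100 members 97 and of 1000 members 973 kept their place in a top list of that size by nsf RNAi mean. SMED30007704 had log2 differences between -0.043 and 0.0059 with 1 library left out, above 0 without nsf RNAi replicate 2. The other 6 IDs kept their direction, except that SMED30021545 was at 0 after quantile normalization, a value fixed by its ranks. At 704 recovered counts, the lowest of any member, counting error alone is 3.77%, so differences of a few percent are at the limit of depth for the least counted members.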
